A study of Homo sapiens with 6 samples.

Results

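The 10 genes described here are cytokines, receptors, a signalling pair and targets of the interleukin-6 (IL6) family, read in HK-2 cells with and without overexpression of *PPM1K*. They are the cytokines *IL6*, *IL11* and *LIF*, the receptor chains *IL6ST*, *OSMR* and *LIFR*, the transcription factor *STAT3*, its feedback inhibitor *SOCS3*, and the serum amyloid A genes *SAA1* and *SAA2*. The genes were taken by symbol from the deposited tables, where all 10 had a row among the 31369 genes counted, and all 10 passed the filter on low counts that left 15878 genes for testing. HK-2 is an established cell line made from the proximal tubule epithelium of human kidney. PPM1K is a protein phosphatase of the mitochondrial matrix that acts on the branched-chain keto acid dehydrogenase.

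The study sequenced messenger RNA of HK-2 cells in a control group (NC, 3 samples) and a group overexpressing *PPM1K* (OE, 3 samples), to ask which genes change with overexpression. By genotype the labels call NC "WT" and OE "PPM1K overexpress", and all 6 samples carry day 10 and a treatment entry that reads chronic kidney disease. The sample titles name shControl and shPPM1K instead, while the protocol describes a *PPM1K* plasmid delivered by lipofection. The study speaks of its replicates as biological, but whether the samples of a group were separate cultures or transfections, and what NC cells received, is not given in the sources used here. The p-values measure the spread between these samples, which may then be technical in part. The cell line entry of the labels differs from sample to sample in its number (HK-2 and others), while the cell type entry is HK-2 throughout. *PPM1K* itself, which checks the genotype entries, had 37, 19 and 53 counts in NC and 3294, 3531 and 2919 in OE.

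Total counts ran from 34635770 to 36116963 in NC and from 36033404 to 39850802 in OE. NC replicate 2 stood apart, with 26478 genes at 1 count or more against 22094 to 22913 in the other samples, and 3551 genes that had a count in no other sample. Without it, the log2 fold changes of the 10 genes had the same sign, and *IL6*, *SAA1* and *SAA2* were at −1.03, −1.45 and −2.08. The epithelial markers *KRT8*, *KRT18*, *EPCAM* and *CDH1* summed to 2943 to 3176 CPM (counts scaled to the library size by edgeR) in NC and 2320 to 2478 in OE. Of 6 proximal tubule markers 3 were high enough to test, with a summed level of 1.69 to 2.51 CPM in NC and 1.44 to 1.61 in OE, and *LRP2*, *CUBN* and *AQP1* had 0 to 6 counts. Of 6 leukocyte markers 1 was tested (summed level 0.886 to 1.13 CPM in NC and 0.527 to 1.17 in OE), with *PTPRC* and *CD3E* at 0 to 2 counts. Fibroblast and endothelial markers, of which 4 of 6 were tested, summed to 18.1 to 19.3 CPM in NC and 13.5 to 14.2 in OE, where *COL1A1* fell and *PECAM1* and *VWF* rose. The summed levels of the epithelial, of the proximal tubule and of the fibroblast and endothelial markers were lower in OE. The part of these markers in the results below was not tested. Of the proximal tubule markers, *GGT1* fell, at a log2 fold change of −1.09 (edgeR adjusted p = 0.0034), on 21 to 60 counts. *ANPEP* and *SLC34A1* did not pass (edgeR adjusted p = 0.51 and 0.94). Levels of single genes are given in CPM, which here means counts scaled by edgeR to its normalised library size. Most of the epithelial difference was in *KRT8*, which went from 2159 ± 125 to 1543 ± 68.1 CPM (SD, n = 3). *KRT18* had 601 ± 30.8 and 611 ± 30.9 CPM and did not pass (edgeR adjusted p = 0.75). *EPCAM* and *CDH1* fell, with log2 fold changes of −0.24 and −1.09.

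Cytokines of the IL6 family share the signalling chain gp130, the product of *IL6ST*. IL6 and IL11 first bind a receptor of their own and then a pair of gp130 chains, LIF joins gp130 with LIFR, and oncostatin M joins gp130 with OSMR. The paired chains activate JAK kinases, which phosphorylate STAT3, and STAT3 enters the nucleus and switches on target genes that include *SOCS3*, whose protein blocks further signalling at gp130. *IL6* is also a target of NF-kB and C/EBP factors, and so are *SAA1* and *SAA2*, acute-phase apolipoproteins that the liver secretes in inflammation and that injured epithelia can also make.

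RefSeq promoter windows, the 250 bases before an annotated start on GRCh38.p14, were matched for 7 of the 10 genes, and *LIF*, *SAA1* and *SAA2* were without an entry. Those of *IL6*, *IL11* and *IL6ST* are shown because these are the cytokines and the receptor with the largest changes among the 7. They were searched on both strands for GGGNNTTTC (NF-kB), TTGCNNAA (C/EBP), TTCNNNGAA (STAT) and TGANTCA (AP-1), and capitals mark the matches, none of which overlap each other. The *IL6* window is chr7:22726950-22727199 on the plus strand, of which chr7:22726950-22727146 is printed. The *IL11* window is chr19:55370464-55370713 on the minus strand, printed whole. The *IL6ST* window is chr5:55994964-55995213 on the minus strand, of which chr5:55995023-55995213 is printed. The search covered the whole window, while bases that GENCODE places in an exon were left out of the sequences printed, which removed 53 bases of *IL6* and 59 of *IL6ST* next to the start.
IL6: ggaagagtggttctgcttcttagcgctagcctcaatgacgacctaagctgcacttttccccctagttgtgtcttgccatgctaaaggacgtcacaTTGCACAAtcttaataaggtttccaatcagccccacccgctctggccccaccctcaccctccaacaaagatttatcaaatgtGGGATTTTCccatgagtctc
IL11: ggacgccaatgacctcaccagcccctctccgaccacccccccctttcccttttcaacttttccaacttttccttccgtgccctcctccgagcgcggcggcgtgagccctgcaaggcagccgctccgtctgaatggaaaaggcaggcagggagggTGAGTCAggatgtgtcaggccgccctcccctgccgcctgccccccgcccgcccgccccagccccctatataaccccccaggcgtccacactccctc
IL6ST: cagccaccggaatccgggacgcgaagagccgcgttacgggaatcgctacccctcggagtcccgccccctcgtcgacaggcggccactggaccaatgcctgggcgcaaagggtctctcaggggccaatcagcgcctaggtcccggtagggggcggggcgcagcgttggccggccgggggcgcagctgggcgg
The *IL6* window held 1 match to GGGNNTTTC, from 73 bases before the start, and 1 to TTGCNNAA, from 155 bases before it. *IL11* held 1 match to TGANTCA, 96 bases before its start, and the *IL6ST* window held none of the 4 motifs. Among 35116 RefSeq promoter windows of this length, GGGNNTTTC was in 4.16%, TTGCNNAA in 9.05%, TTCNNNGAA in 6.57% and TGANTCA in 6.57%. Among the others, *OSMR* held TTGCNNAA at 73 bases, within the stretch that GENCODE places in an exon of the gene. *LIFR* held TTCNNNGAA at 165 bases before the first of its starts, and 1 TTCNNNGAA and 1 TTGCNNAA before the second. *STAT3* and *SOCS3* held none in these windows. Those of *SOCS3* are chr17:78360926-78361175 and chr17:78359668-78359917, on the minus strand. Neither takes in the bases just before the GENCODE start of *SOCS3*, at 78360077, which were not searched.

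In OE, *IL6*, *SAA1* and *SAA2* were lower than in NC by more than 2-fold, *IL6ST* was higher by 1.66-fold, and *IL11*, *SOCS3*, *OSMR*, *LIF* and *STAT3* fell by smaller amounts. The calling rule asked for an adjusted p under 0.05 (edgeR's quasi-likelihood test, Benjamini-Hochberg over all tested genes) together with a fold change above 2 or below 0.5. By this rule 3 of the 10 genes were called lower, where 3.79% of all tested genes were, and 0 were called higher, where 1.73% were. At the adjusted p alone, 8 fell, against 23.7% of all tested genes, and 1 rose, against 24.9%, while *LIFR* did not pass. The groups did not overlap in CPM for 8 of the 10 genes, and for 55.3% of all tested genes. The median log2 fold change (OE over NC) was −0.43 for the 10 genes and −0.00321 for all tested genes. In cell populations such as these, fewer cells of a type and less RNA per cell cannot be told apart.

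**Figure D1:**
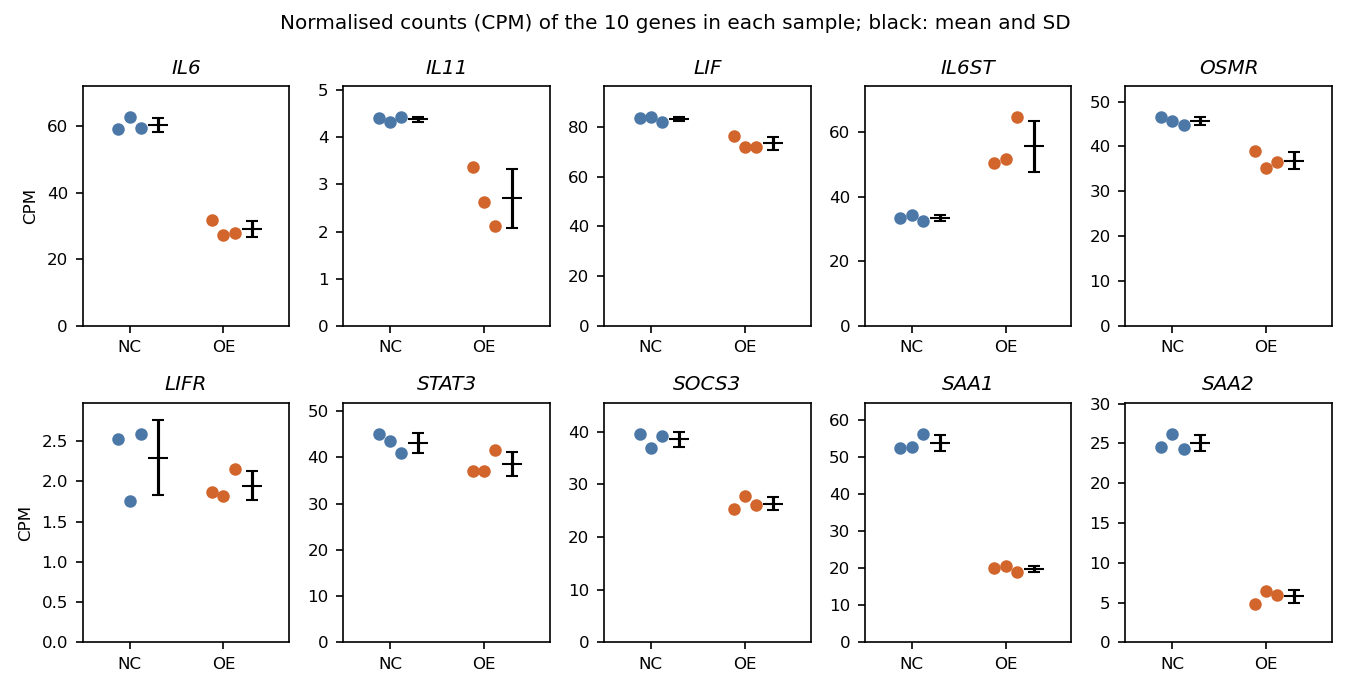
CPM of the 10 genes (y axis, from 0, one panel a gene) in the 3 NC samples (blue) and the 3 OE samples (orange), with mean and SD in black. The groups are separate for 8 genes and overlap for *LIFR* and *STAT3*, and *IL6ST* alone has its OE points above its NC points.

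The cytokine *IL6* (ENSG00000136244.12, chromosome 7, 22725884 to 22732002, plus strand, GENCODE 44 on GRCh38) had 59.1, 62.7 and 59.4 CPM in NC and 31.8, 27.4 and 27.9 in OE. The lowest NC sample was above the highest OE sample, and the spread within a group was small, at a coefficient of variation of 3.32% in NC and 8.42% in OE. Its mean went from 60.4 ± 2.0 to 29.0 ± 2.45 CPM (SD, n = 3), a log2 fold change of −1.06 (standard error 0.066, edgeR adjusted p = 3.4e-11), and NC exceeded OE by 2.08-fold. This was the 537th lowest fold change of all tested genes, with 3.38% at or below it. It lay close to the threshold of 2-fold. Leaving out 1 sample at a time gave −1.12 to −1.01, and limma on log2(FPKM + 1) gave −0.98, which ends the call. The study's own RT-PCR, run on the same RNA samples, went the other way for this gene. It gave a rise of *IL6* with overexpression, which the paper calls statistically significant and inconsistent with its sequencing. The exons of *IL6* share 46 bases with *STEAP1B* on the other strand, whose own log2 fold change was −0.0492 (edgeR adjusted p = 0.7), and 428 bases with the antisense RNA *IL6-AS1*, which had 1 to 16 counts, at most 1.58% of those of *IL6* in a sample.

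*LIF*, the leukaemia inhibitory factor (ENSG00000128342.5, chromosome 22, 30240453 to 30246759, minus strand), changed least of the 3 cytokines. It had 83.4, 83.8 and 82.1 CPM in NC and 76.2, 71.7 and 72.0 in OE, so every OE sample was below every NC sample by a small step. The mean went from 83.1 ± 0.893 to 73.3 ± 2.53 CPM (SD, n = 3), and the log2 fold change was −0.18 (standard error 0.051, edgeR adjusted p = 0.0059). The antisense genes that overlap it, *LIF-AS1* and *LIF-AS2*, had at most 0.305% of its counts. The *IL6* count for each *LIF* count was 0.708, 0.748 and 0.723 in NC and 0.418, 0.381 and 0.388 in OE. The ratio was lower in every OE sample than in any NC sample and fell from a mean of 0.726 ± 0.02 to 0.396 ± 0.0194 (SD, n = 3, exact two-sided permutation p = 0.1, the smallest that 3 against 3 allow).

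*IL11*, a cytokine known for its part in fibrosis of the kidney and other organs (ENSG00000095752.7, chromosome 19, 55364382 to 55370463, minus strand), had low counts, 77 to 159 in a sample. It had 4.40, 4.32 and 4.42 CPM in NC and 3.36, 2.63 and 2.12 in OE. The NC samples were nearly equal (coefficient of variation 1.23%) and the OE samples were spread (23.0%), without overlap between the groups. The log2 fold change was −0.70 (standard error 0.16, edgeR adjusted p = 0.0012), and it was −0.55 without OE replicate 3, the lowest sample. The *IL6* count for each *IL11* count was 13.4, 14.5 and 13.4 in NC and 9.48, 10.4 and 13.2 in OE, so that OE replicate 3 lay just under the NC samples in this ratio.

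*IL6ST*, which codes for the shared chain gp130 (ENSG00000134352.20, chromosome 5, 55935095 to 55995022, minus strand), was the member that rose. It had 33.3, 34.5 and 32.5 CPM in NC and 50.4, 51.7 and 64.6 in OE. OE replicate 3 was the highest by some distance, and the other OE samples were also above every NC sample. The mean went from 33.4 ± 1.01 to 55.6 ± 7.84 CPM (SD, n = 3), a log2 fold change of 0.73 (standard error 0.078, edgeR adjusted p = 1.2e-07), and 0.61 without OE replicate 3. It ranked 684th from the highest of all tested genes. The exons of *IL6ST* share 797 bases, 6.61% of its own, with a long noncoding RNA gene on the other strand (ENSG00000262211). That gene had no row in the counts, so its part in the *IL6ST* counts was not tested.

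*OSMR*, the oncostatin M receptor chain (ENSG00000145623.13, chromosome 5, 38845858 to 38945596, plus strand), had 46.5, 45.6 and 44.7 CPM in NC and 38.9, 35.2 and 36.5 in OE. All OE samples were below all NC samples, and the log2 fold change was −0.31 (standard error 0.061, edgeR adjusted p = 0.00027). It shares 229 exonic bases, 3.19% of its own, with *RICTOR* on the other strand, for which the log2 fold change was 0.144 (edgeR adjusted p = 0.18). *IL6ST* had 0.716, 0.756 and 0.726 counts for each *OSMR* count in NC and 1.3, 1.47 and 1.77 in OE. The ratio was higher in each OE sample (exact two-sided permutation p = 0.1, the smallest possible).

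*LIFR*, the LIF receptor chain (ENSG00000113594.10, chromosome 5, 38474668 to 38608354, minus strand), was near the limit of what this depth can compare. Its counts were 88, 62 and 93 in NC and 69, 72 and 78 in OE, which is 2.53, 1.76 and 2.59 CPM against 1.87, 1.82 and 2.15. NC replicate 2 was the lowest of all 6 samples and the other NC samples the highest, so the groups overlapped. The log2 fold change was −0.24 (standard error 0.19, edgeR adjusted p = 0.33), with a 95% interval from −0.62 to 0.14, and it was −0.39 without NC replicate 2 (adjusted p = 0.12). A fall or a small rise within that interval was not distinguishable at this depth.

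*STAT3* (ENSG00000168610.16, chromosome 17, 42313324 to 42388540, minus strand) had 45.1, 43.5 and 40.9 CPM in NC and 37.0, 37.1 and 41.5 in OE. OE replicate 3 was above NC replicate 3, so the groups overlapped. The log2 fold change of −0.16 (standard error 0.066) passed at an edgeR adjusted p of 0.044 and missed under DESeq2 (adjusted p = 0.082), while the exact two-sided permutation p over samples was 0.2. It was also lost without NC replicate 1, NC replicate 2, OE replicate 1 or OE replicate 2, at adjusted p of 0.21, 0.11, 0.19 and 0.17. These are levels of its RNA, and the phosphorylated protein was not measured in these data.

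*SOCS3*, the STAT3 target that holds gp130 signalling in check (ENSG00000184557.4, chromosome 17, 78356778 to 78360077, minus strand), fell more clearly. It had 39.6, 36.9 and 39.2 CPM in NC and 25.3, 27.7 and 26.0 in OE, with a wide gap between the groups. The mean went from 38.6 ± 1.45 to 26.3 ± 1.26 CPM (SD, n = 3), a log2 fold change of −0.55 (standard error 0.067, edgeR adjusted p = 8.6e-07). *SOCS3*, *STAT3* and *IL11* overlap no other annotated gene.

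The serum amyloid A genes had the largest falls of the 10. *SAA1* (ENSG00000173432.12, chromosome 11, 18266260 to 18269977, plus strand) had 52.6, 52.8 and 56.4 CPM in NC and 20.1, 20.6 and 19.0 in OE, 2 tight groups far apart. NC exceeded OE by 2.71-fold, at a log2 fold change of −1.44 (standard error 0.066, edgeR adjusted p = 2.7e-13). *SAA2* (ENSG00000134339.9, chromosome 11, 18239223 to 18248668, minus strand) had 24.6, 26.2 and 24.3 CPM in NC and 4.87, 6.5 and 5.95 in OE. Each NC sample was several times any OE sample, and the mean was 4.33-fold higher in NC, at a log2 fold change of −2.11 (standard error 0.097, edgeR adjusted p = 2.7e-13). It ranked 65th from the lowest among all tested genes and *SAA1* 216th.

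*SAA1* and *SAA2* are close copies, which bears on how reads were divided between them. Of the 150-base windows along the annotated transcripts, 114 were identical in both, which is 8.94% of those of *SAA1* and 5.29% of those of *SAA2*. At 50 bases the shares were 34.2% and 17.8%. Since the authors counted uniquely mapped reads, fragments from identical stretches may be missing from either gene, and whether counting used strand is not stated. With the counts of both added before the fit, the log2 fold change was −1.62 (edgeR adjusted p = 5.0e-15). Of the summed counts, *SAA2* took 31.9%, 33.2% and 30.1% in NC and 19.5%, 24.0% and 23.8% in OE. The share was lower in each OE sample than in any NC sample, with means of 31.7% ± 1.54 and 22.5% ± 2.53 (SD, n = 3, exact two-sided permutation p = 0.1, the smallest possible).

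The readthrough gene *SAA2-SAA4* (ENSG00000255071.3, chromosome 11, 18231423 to 18248635, minus strand) shares 267 exonic bases, 11.9% of those of *SAA2*, on the same strand. It had 11.4, 11.9 and 11 CPM in NC and 2.63, 3.67 and 2.97 in OE. The log2 fold change was −1.89 (standard error 0.12, edgeR adjusted p = 8.6e-11). It had 0.464, 0.456 and 0.452 counts for each *SAA2* count in NC and 0.539, 0.564 and 0.5 in OE and the ratio was higher in each OE sample than in any NC sample. The *SAA1* count for each *IL6* count was 0.891, 0.842 and 0.949 in NC and 0.63, 0.751 and 0.68 in OE, again without overlap. In all, 6 such ratios between pairs of genes were compared, each at the smallest permutation p of 0.1, so none can pass 0.05 in this design.

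**Figure D2:**
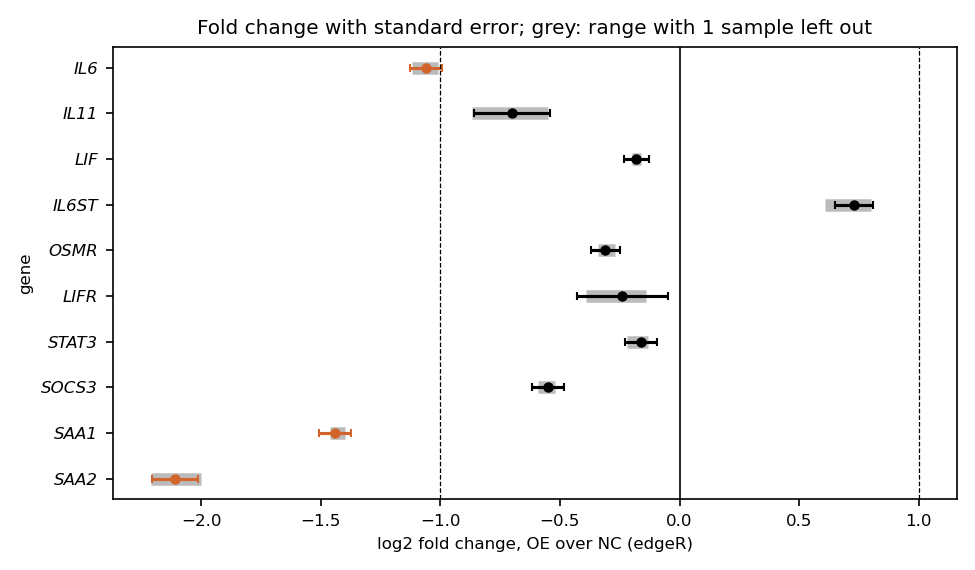
Log2 fold change of OE over NC (x axis, edgeR) for each of the 10 genes (y axis), with its standard error as a bar, the range with 1 sample left out in grey and dashed lines at 2-fold either way. The 3 called genes (orange) are *IL6* at −1.06, *SAA1* at −1.44 and *SAA2* at −2.11, and *IL6ST* is the one to the right of 0, at 0.73.

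The order of the levels can be read from the deposited FPKM, which scales fragments to transcript length and library size and so allows for gene length. The transcript length behind an FPKM is that of the authors, so levels between genes depend on the isoforms assumed. The ratio of counts to FPKM, with the summed counts of a sample as its library size, gives only a relative length. It was 761 bases for *SAA1*, 2402 for *SAA2*, 2217 for *IL6* and 12006 for *STAT3*. Those of *SAA2* and *STAT3* exceed their 2242 and 11208 annotated exonic bases, so they are not the authors' lengths. In NC the order was *SAA1* (70.0 ± 2.99 FPKM, SD, n = 3), *IL6* (26.9 ± 0.568), *LIF* (19.8 ± 0.261), *SOCS3* (13.0 ± 0.644), *SAA2* (10.3 ± 0.313), *OSMR* (5.86 ± 0.156), *STAT3* (3.55 ± 0.191), *IL6ST* (3.04 ± 0.0737), *IL11* (1.51 ± 0.0321) and *LIFR* (0.173 ± 0.0379). No neighbours in this order had overlapping ranges over the 3 samples. In OE *SAA1* was still first, at 26.1 ± 0.893 FPKM, *LIF* (17.7 ± 0.393) stood above *IL6* (13.1 ± 0.936), and *SOCS3* was next (9.0 ± 0.495). *IL6ST* (5.13 ± 0.792) had moved from the eighth place to the fifth, beside *OSMR* (4.79 ± 0.196), and the ranges of these neighbours overlapped. *STAT3* (3.22 ± 0.256) then came before *SAA2* (2.41 ± 0.366), which had dropped from the fifth place to the eighth, *IL11* (0.94 ± 0.201) and *LIFR* (0.15 ± 0.0173).

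**Figure D3:**
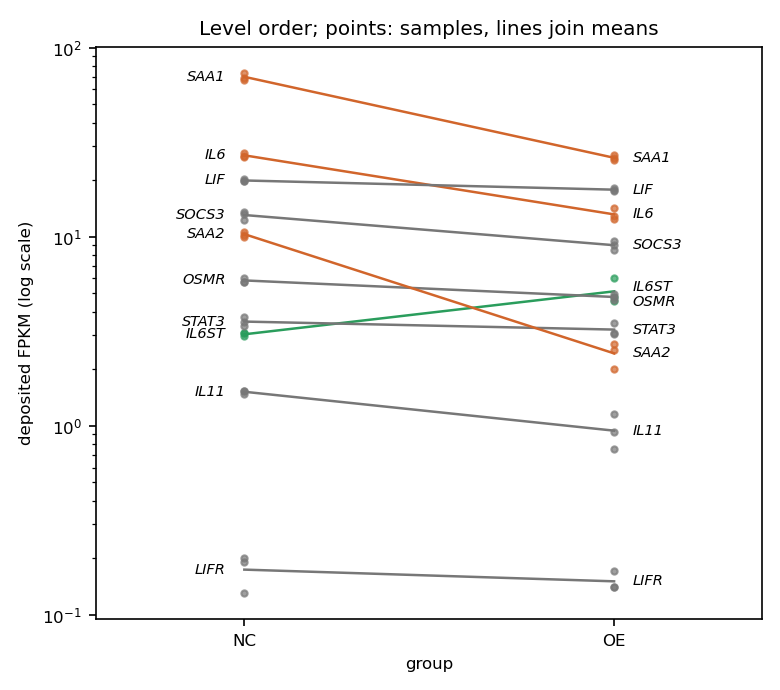
Deposited FPKM (y axis, log scale) of the 10 genes in the NC and OE samples (points), with lines between group means, orange for genes called lower, green for *IL6ST* and grey for the others. *IL6* crosses below *LIF*, *IL6ST* crosses *STAT3* and reaches *OSMR*, and *SAA2* drops from 10.3 to 2.41 FPKM.

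Of 81 other genes of the pathway, in 7 lists, 60 were tested, 2 were called higher and 6 called lower. Among all tested genes 1.73% were called higher and 3.79% lower. At the adjusted p alone 18 of the 60 rose and 22 fell, and 20 did not pass. By that measure 24.9% of all tested genes rose and 23.7% fell, which is the background for each list below too. The median log2 fold change of the 60 genes was −0.05, close to that of all tested genes.

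Among other cytokines and partners 3 of 8 were tested, none was called, and only *CLCF1*, a cytokine that signals through gp130 and LIFR, passed. It fell from 10.8, 12.2 and 12.4 CPM to 6.91, 6.4 and 7.76, a log2 fold change of −0.75 (standard error 0.1, edgeR adjusted p = 4.0e-06). *OSM*, the ligand of OSMR, *CNTF* and *CTF1* had too few counts to test. *IL27* and *IL31* had no row under these symbols in the counts used here. Of 7 receptors and sheddases 6 were tested, 2 rose and 1 fell. *IL27RA*, a partner of gp130, went from 18.2 ± 1.01 to 28.5 ± 1.88 CPM (SD, n = 3, log2 fold change 0.65, edgeR adjusted p = 5.8e-07). *IL11RA*, which binds IL11, was called lower at −1.65 (edgeR adjusted p = 0.0036), on 15 to 20 counts in NC and 4 to 7 in OE. *IL6R*, which binds IL6, had 12.9 ± 1.33 and 15.1 ± 1.73 CPM (SD, n = 3) and did not pass (log2 fold change 0.23, edgeR adjusted p = 0.054).

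Among JAK kinases, STATs and adaptors 9 of 9 were tested, 2 rose, 4 fell and none was called, with a median of −0.16. *JAK2* rose from 1.92 ± 0.324 to 3.22 ± 0.613 CPM (SD, n = 3, log2 fold change 0.74, edgeR adjusted p = 0.0024), while *JAK1* fell by 0.49 on the log2 scale, to 201 CPM. Of the 9 feedback inhibitors besides *SOCS3* all were tested, 2 rose and 3 fell, with a median of −0.10. *PIAS3*, an inhibitor of STAT3, fell from 18.2 ± 1.93 to 11.5 ± 0.913 CPM (SD, n = 3, log2 fold change −0.67, edgeR adjusted p = 4.4e-06), and the phosphatase gene *PTPN6* from 28.6 ± 1.1 to 19.2 ± 0.441. *SOCS1* did not pass, at −0.25 (adjusted p = 0.37).

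Of 18 genes known as STAT3 targets 17 were tested, and they moved both ways, with 7 higher, 6 lower and a median of 0.05. *FOS*, an immediate-early AP-1 gene, was called lower, from 48.2, 49.3 and 49.7 CPM to 13.3, 13.5 and 11.9 (log2 fold change −1.93, standard error 0.072, edgeR adjusted p = 1.0e-14). *JUNB*, its AP-1 partner, went from 93.6 ± 1.58 to 49.5 ± 1.56 CPM (SD, n = 3, log2 fold change −0.92). *VEGFA*, the angiogenic growth factor, and *KLF4*, a transcription factor, were called higher, at 1.5 (edgeR adjusted p = 3.2e-15) and 1.79 (edgeR adjusted p = 5.5e-13). *VEGFA* rose from 131 ± 6.83 to 369 ± 7.23 CPM and *KLF4* from 7.92 ± 0.634 to 27.4 ± 1.52 (SD, n = 3). *CCND1*, which codes for cyclin D1, rose by 0.81 on the log2 scale, from 173 to 304 CPM.

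Of 20 other acute-phase genes 6 were tested, 5 fell, 1 rose and 3 were called lower, with a median of −0.85. *CRP*, *HP*, *SERPINA3* and *ORM2* had no row under these symbols in the counts used here, and 10 more had too few counts to test. *FGB*, the fibrinogen beta chain, went from 5.92, 5.2 and 5.48 CPM to 0.894, 0.86 and 0.936 (log2 fold change −2.62, standard error 0.17, edgeR adjusted p = 5.8e-11). *C3*, the central complement component, fell from 426 ± 19.4 to 270 ± 7.02 CPM (SD, n = 3, log2 fold change −0.66, edgeR adjusted p = 1.1e-09), and *SERPINA1*, the antitrypsin gene, by 0.49 on the log2 scale. The complement factor gene *CFB* was called lower at −1.04, on 26 to 61 counts, and was at −1.13 to −0.96 with each sample left out. *SAA4* was called lower at −2.52, on 13 to 24 counts in NC and 0 to 5 in OE. Whether *SAA4* shares reads with the readthrough *SAA2-SAA4*, which also fell, was not tested. *LCN2*, the kidney injury marker also called NGAL, was the one that rose, from 833 ± 34.9 to 1031 ± 70.5 CPM (SD, n = 3, log2 fold change 0.31, edgeR adjusted p = 0.00013).

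Among 10 NF-kB and C/EBP genes, all tested, 4 rose and 2 fell, with a median of −0.01. Of the C/EBP genes, *CEBPB* rose from 56.2 ± 3.93 to 107 ± 3.67 CPM (SD, n = 3, log2 fold change 0.93, edgeR adjusted p = 3.1e-11), and *CEBPD* was called lower, from 29.5, 32.1 and 36.5 CPM to 15.8, 17.2 and 15.5 (log2 fold change −1.02, edgeR adjusted p = 2.9e-09, from −1.08 to −0.93 with each sample left out). *CEBPA* did not pass (log2 fold change −0.16, edgeR adjusted p = 0.3). *RELB*, *NFKB2* and *NFKB1*, which code for NF-kB subunits, rose by 0.81, 0.53 and 0.41 on the log2 scale. *RELA* did not pass (log2 fold change 0.10, edgeR adjusted p = 0.094), and *NFKBIZ*, which codes for an NF-kB cofactor, fell by 0.41.

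**Figure D4:**
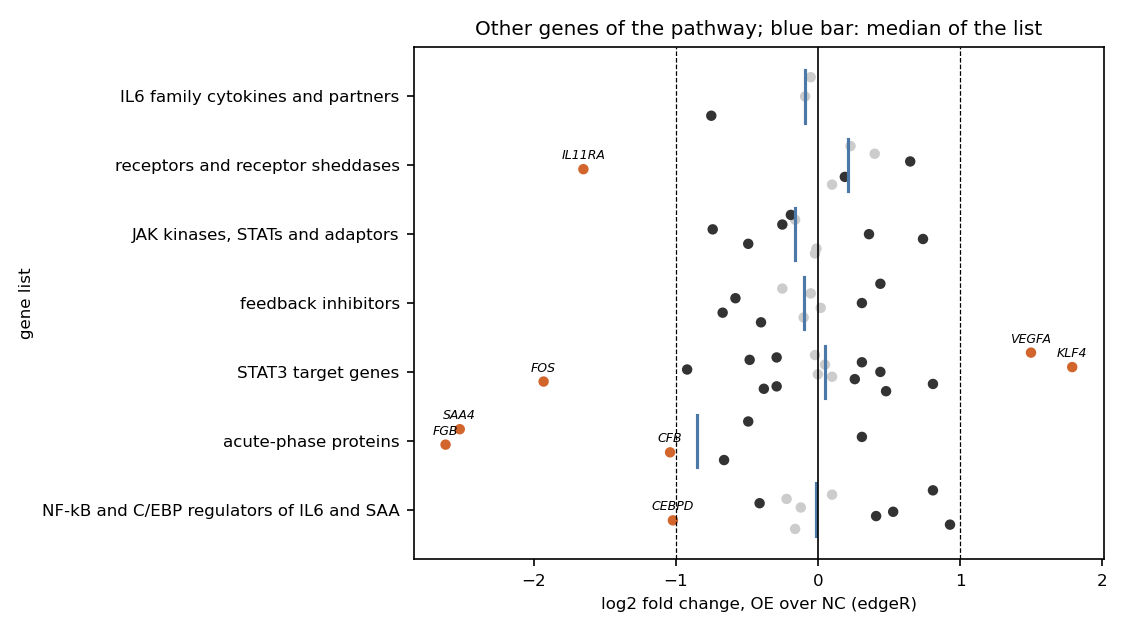
Log2 fold change of OE over NC (x axis, edgeR) of the 60 tested genes in 7 pathway lists (y axis), orange and named where called, black where past an adjusted p of 0.05 and grey otherwise, with a blue bar at the list's median and dashed lines at 2-fold. Points of most lists lie on both sides of 0, and the acute-phase list has its median at −0.85.

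The genes with the sample profile most like that of *IL6*, by Euclidean distance of centred log2(CPM + 1) over the 6 samples among 10485 genes with a mean of 5 CPM or more, were *TM4SF1* (distance 0.0983), *HSPA12A* (0.107) and *PDK4* (0.143). Their log2 fold changes were −1.03, −1.05 and −1.07. For *SAA1* they were *CASTOR3* (0.116), *PRPS1* (0.131) and *MAGED1* (0.139), with log2 fold changes of −1.58, −1.35 and −1.34. In the study's RT-PCR *MAGED1* rose instead, without statistical significance. These distances rest on 6 samples in 2 groups, whose difference makes up most of each profile.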

How the data were processed

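The authors filtered and trimmed the reads, placed them on GRCh38 with HISAT2 and took those that mapped to a single place. The deposited counts per gene are not normalised, and the authors computed the deposited FPKM values, held for 30896 genes to 2 decimals, from the same reads. Which annotation and counting program were used is not given in the sources used here. The processing notes also list mm10, but the gene identifiers are human.

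Samples were grouped by the genotype entry of the labels. From the counts, edgeR 4.0.16 in R 4.3.3 was run on all 6 samples with filterByExpr, TMM and the quasi-likelihood F-test, without a replicate block, with Benjamini-Hochberg adjustment over 15878 genes. CPM came from edgeR, standard errors were derived from the F statistic, and 95% intervals are 1.96 standard errors either way. The study's thresholds were kept, while its tool, DESeq2 (1.42.0), and limma (3.58.1) on log2(FPKM + 1) or log2(FPKM + 0.1), for genes at an FPKM of 1 or more in 3 samples, were alternatives. The scripts were tested on simulated data. Replicates differed by more than counting error (chi-square per gene 4.833 to 10.982). They were treated as separate samples, although this spread cannot tell separate cultures from technical repeats. Counting error is largest for *LIFR* and *IL11*, with mean counts of 77 and 128, among the members.

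The members and lists were chosen with earlier results of these data known. Named beside them are *PPM1K*, genes overlapping a member, called list genes with a mean count of 100 or more, the 2 largest others past the adjusted p of each list, and the 3 nearest profiles. A result for 1 list gene is not reported here. *IL6R*, *JAK1*, *SOCS1*, *C3*, *SERPINA1*, *LCN2*, *NFKB1*, *NFKB2*, *RELA*, *NFKBIZ* and *CEBPA* were chosen after their values were seen. Coordinates and overlaps came from GENCODE 44, and promoters from RefSeq. Figures were drawn with matplotlib 3.10.9.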

Additional observations from a re-analysis of the deposited data

How the results depend on the processing

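The calls of *SAA1* and *SAA2* held under each alternative run: DESeq2, DESeq2 size factors or upper quartile in edgeR, no filter on low counts, glmTreat, the replicate block, limma on FPKM and each sample left out. That of *IL6* held under the same ones except limma on log2(FPKM + 1), with or without the filter, where 2 members were called lower. No direction was reversed, and the scalings put the median of all genes at −0.00612 (DESeq2 size factors) and −0.0412 (upper quartile). Without a fold change threshold 1 member was higher and 8 lower, and 18 and 22 pathway genes. The pathway genes called lower were 6 in the main run and 5 without NC replicate 2. They were 7 under DESeq2, with no filter on low counts, and without OE replicate 2. Against a fold of 1.5 in glmTreat 5 pathway genes were higher, and *IL11* (−0.70, adjusted p = 0.76), *IL6ST* (0.73, 0.14), *SOCS3* (−0.55, 1), *OSMR* (−0.31, 1), *LIF* (−0.18, 1) and *STAT3* (−0.16, 1) did not pass.

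*STAT3* was the member whose adjusted p depended on other settings. It was −0.16 under DESeq2 (adjusted p = 0.082), with no filter (0.075) and with the replicate block (0.084), −0.11 and −0.14 by limma on log2(FPKM + 1) and log2(FPKM + 0.1) (0.15 each), −0.11 without the FPKM filter (0.3), and −0.22 to −0.13 with each sample left out (0.0069 to 0.21). The deviations of same-numbered samples correlated at −0.00319, −0.0663 and −0.0542. These values gave no sign of pairing by number, though 3 samples a group cannot exclude a shared culture or transfection. The replicate block left 3 members called lower and changed no other call of a member. *LIFR* was under the FPKM filter and has no value in the filtered FPKM fits. Depth limits *LIFR*, *IL11RA*, *SAA4* and *CFB* most.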
